A study of Mus musculus with 6 samples.

Results

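The genes described here build and move the mitotic spindle. They are the mouse genes whose symbols mark kinesin motors, lettered centromere proteins, kinetochore and spindle checkpoint proteins, the Aurora and polo kinases with their passenger partners, and Tpx2, Prc1 and Top2a. The members were picked out by a rule on symbols that uses no measured value, although the rule itself was set with earlier results of these data known. In all, 82 of the 22246 genes in the deposited expression table matched, out of 89 such symbols in the GENCODE M21 annotation. All 6 libraries came from HL-1, an established cell line derived from mouse atrial cardiomyocytes (labelled strain C57BL/6, tissue heart): 3 carried an shRNA against Smyd4, which encodes a SET and MYND domain protein, and 3 carried a control shRNA. An shRNA is a hairpin transcript that directs degradation of a matching mRNA. The sources used here do not state the vector, how long the shRNA acted, or whether replicates were grown apart. The p-values therefore reflect the spread of these libraries alone, and that spread may be technical.

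A kinesin is a motor that uses ATP to walk along a microtubule or to take its end apart. During mitosis a subset of kinesins separates the spindle poles, moves chromosomes and closes the cleavage site, while other kinesins carry vesicles, organelles and ciliary cargo throughout the cell cycle. The kinetochore, a protein assembly laid down on centromeric chromatin marked by the histone variant CENP-A, links each chromosome to microtubules, and the spindle checkpoint holds the cell in metaphase until every kinetochore is attached. Most genes for these mitotic proteins are transcribed mainly in G2 and M phase, so in a culture their mRNA follows how many cells are in those phases as well as the level per cell. In these bulk samples more cells in a phase and more RNA per cell cannot be told apart.

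Reads assigned to genes, recovered from the deposited values, summed to 20755849 to 26387605 per library in the group labelled Smyd4 shRNA. In the control group they summed to 23414482 to 25267605. These sums are lower bounds, because the smallest possible length was used for 3342 genes. Smyd4 itself stood at 12.6, 12.3 and 11.9 FPKM in the labelled libraries, against 12.5, 12.8 and 13.5 FPKM in the control libraries, so the groups overlapped (exact two-sided permutation test, p = 0.2, where 0.1 is the smallest p this design allows; limma, adjusted p = 0.173). FPKM are fragments per kilobase of gene length, scaled here by the authors' size factor of each library. The mRNA of the target does not bear out the label, so the 3 libraries are called labelled libraries throughout and each direction is relative to that label. Of the cardiomyocyte markers, of which 8 of 9 were measured, Nkx2-5 averaged 7.68 FPKM in the labelled libraries and 3.57 FPKM in the control libraries, and Tnnt2 11.7 FPKM in the labelled and 7.11 FPKM in the control libraries. The defining sarcomere and calcium-handling genes were close to 0: Myh6 averaged 0.0127 FPKM in the labelled and 0.0021 FPKM in the control libraries, Actc1 0.0199 FPKM in the labelled and 0.0340 FPKM in the control libraries, and Ryr2 0.0659 FPKM in the labelled and 0.0359 FPKM in the control libraries. The summed cardiomyocyte markers lay between 173 and 175 FPKM in the labelled libraries and between 164 and 166 FPKM in the control libraries. Most of that sum was Gja1, a connexin gene of many cell types, which averaged 145 FPKM in the labelled and 146 FPKM in the control libraries and did not pass (limma, adjusted p = 0.857). The summed smooth muscle markers (4 of 4 measured) lay between 197 and 205 FPKM in the labelled libraries and between 301 and 315 FPKM in the control libraries. Those of fibroblasts (6 of 6) lay between 270.0 and 282 FPKM in the labelled libraries and between 239 and 245 FPKM in the control libraries, but these markers went both ways. Col1a1 and Col1a2 were called higher, at 69.3 and 84.9 FPKM in the labelled and 37.6 and 60.5 FPKM in the control libraries. Dcn and Pdgfra were called lower, at 1.72 and 2.94 FPKM in the labelled and 26.3 and 4.35 FPKM in the control libraries. The summed endothelial (5 of 5) and immune (4 of 6) markers stayed at or under 0.655 and 2.12 FPKM in every library. The part of these markers in the results on mitotic genes was not tested.

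Spindle motors, inner and outer kinetochore genes and passenger genes were among those called higher in the labelled libraries, and Kif20a, Cenpt, Cenpa, Mad2l1 and Kifc3 among those called lower. Of the 82 members, 71 reached a mean of 1 FPKM and were tested with limma on log2(FPKM + 0.5), with Benjamini-Hochberg adjustment over all 11325 tested genes and a threshold of 0.05. In the labelled libraries 27 of the 71 were higher (38.0%) and 11 were lower (15.5%), while 33 did not pass. Over all tested genes 25.1% were called higher and 23.3% lower, or 48.3% in either direction. The median log2 change was 0.08 over the tested members and 0.02 over all tested genes. With every library scaled to the same FPKM sum, the split became 18 members higher and 12 lower, so that 60% of member calls were rises in place of 71.1%. The same scaling turned the split over all genes to 2200 higher and 3113 lower, against 2839 and 2635. The edgeR quasi-likelihood test on recovered reads called 28 of 75 tested members higher and 11 lower, beside 23.3% and 26.3% of all genes it tested. No called member changed sign under any of the 16 alternatives to the processing.

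The changes were small. By the fitted log2 change, none of the 38 called members reached 1.5-fold, whereas 6.91% of all tested genes were called and changed by at least that much. The called members had a median absolute log2 change of 0.21, against 0.24 over all called genes. In 36 members every labelled library lay above every control library and in 11 every one lay below, where the background over all tested genes was 30.2% and 27.6%. The calls of 25 members, 18 higher and 7 lower, were kept under all 16 alternatives. The other calls were lost under at least 1 alternative. Those of Plk1 and Cenpi were lost under 11 each, Kif13b and Kif5c under 10 each, and Kif2c and Kif7 under 8 each. Ttk lost its call under 7, Cenpk, Kif1b and Kif21a under 6 each, Bub3 under 5, Mad2l1 under 2 and Ndc80 under 1.

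**Figure D1:**
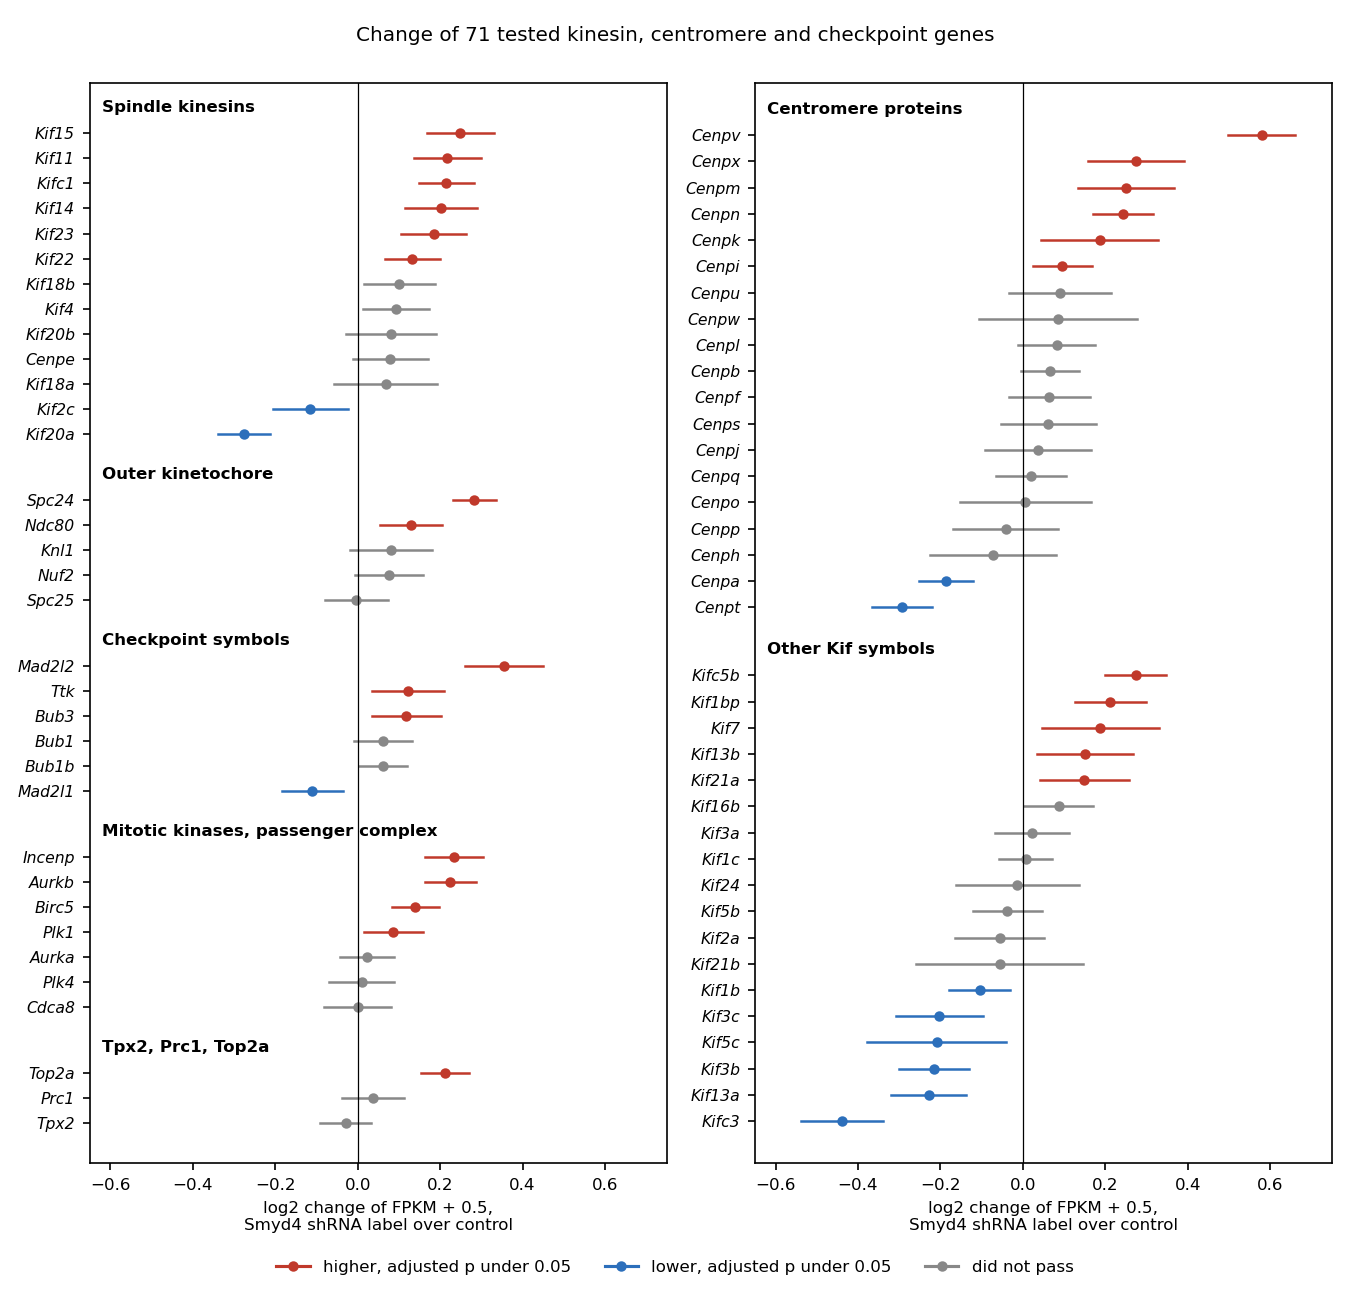
Log2 change of FPKM + 0.5 (x axis, labelled Smyd4 shRNA over control) for the 71 tested members, grouped by role; points are limma estimates from 3 libraries per group and bars are 95% confidence intervals. Rises (27) outnumber falls (11), Cenpv lies farthest to the right at 0.58 and Kifc3 farthest to the left at -0.44.

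**Figure D2:**
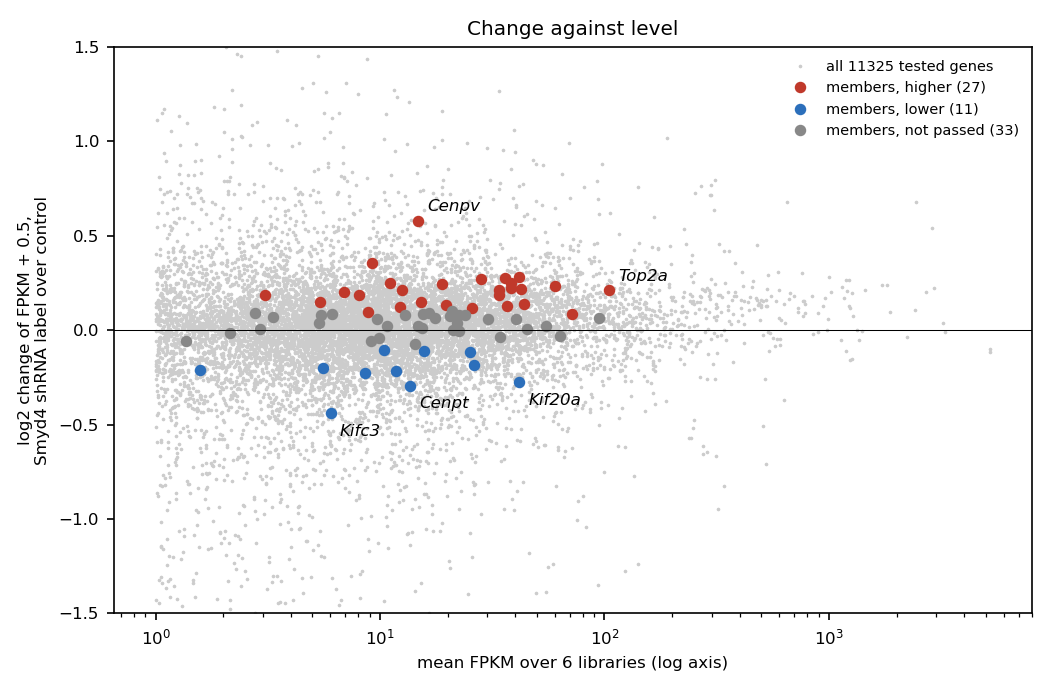
Log2 change (y axis) against mean FPKM over the 6 libraries (log x axis) for all 11325 tested genes in light grey and for the 71 tested members by call. The members stay between -0.44 and 0.58; 135 of the other genes lie outside the plotted range of 1.5 in either direction.

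Promoters of G2 and M phase genes are known for the cell cycle genes homology region (CHR, here searched as TTTGAA), read by the DREAM and MuvB complexes, and for CCAAT boxes (CCAAT) bound by NF-Y. RefSeq windows from 250 bases before to 50 bases after the transcription start (GRCm38.p6) were found for 69 members in 79 windows and searched for both motifs on both strands, where neighbouring matches may share bases. TTTGAA was present in 10 of 12 windows of spindle kinesins (83.3%), in 4 of 24 windows of the other kinesin symbols (16.7%) and in 17.9% of all 32851 windows of the table. CCAAT was present in 66.7%, 37.5% and 37.4% of the same windows. Both motifs stood together in 58.3% of spindle kinesin windows and in 6.95% of all windows. No window was found for the other members, among them Kif20a and Kifc3, called lower, and Aurkb, Incenp and Spc24, called higher. Of the 27 tested genes with TTTGAA in a window, 13 were called higher (48.1%) and 2 lower (7.41%), and 12 missed the threshold. Of the 22 of these with both motifs in 1 window, 11 were called higher (50%) and 1 lower (4.55%), and 10 missed the threshold. Of the 34 tested genes with no TTTGAA in any window, 9 were called higher (26.5%) and 7 lower (20.6%), near the 25.1% and 23.3% over all tested genes. These promoter classes overlap with the roles, since TTTGAA was in 83.3% of spindle kinesin windows but in 16.7% of windows of the other kinesin symbols. Kif13a, Kif1b, Kif3b, Kif3c and Kif5c, all of the latter group, were among the genes called lower without TTTGAA. The difference between the classes, and the part of role in it, was not tested.

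The windows of Kif11, Top2a and Kif23, which were called higher, and of Cenpa, the gene with both motifs that fell, are shown so that genes of one promoter class and opposite direction can be compared. They lie at chr19:37376132-37376431, plus strand (Kif11), chr11:99024140-99024439, minus strand (Top2a), chr9:61946750-61947049, minus strand (Kif23) and chr5:30666636-30666935, plus strand (Cenpa), and capitals mark TTTGAA and CCAAT or their reverse complements TTCAAA and ATTGG.
Kif11: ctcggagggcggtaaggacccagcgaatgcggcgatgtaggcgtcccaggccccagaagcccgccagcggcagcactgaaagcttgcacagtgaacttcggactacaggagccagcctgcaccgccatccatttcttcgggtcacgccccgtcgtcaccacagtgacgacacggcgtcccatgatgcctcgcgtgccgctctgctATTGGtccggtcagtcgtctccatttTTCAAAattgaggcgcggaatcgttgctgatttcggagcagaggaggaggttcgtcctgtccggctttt
Top2a: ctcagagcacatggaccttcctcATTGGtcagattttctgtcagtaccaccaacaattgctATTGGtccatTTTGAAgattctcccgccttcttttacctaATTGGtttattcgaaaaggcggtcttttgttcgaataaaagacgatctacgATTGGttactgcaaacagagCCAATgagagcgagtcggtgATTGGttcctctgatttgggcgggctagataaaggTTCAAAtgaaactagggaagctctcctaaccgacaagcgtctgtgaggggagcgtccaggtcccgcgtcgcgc
Kif23: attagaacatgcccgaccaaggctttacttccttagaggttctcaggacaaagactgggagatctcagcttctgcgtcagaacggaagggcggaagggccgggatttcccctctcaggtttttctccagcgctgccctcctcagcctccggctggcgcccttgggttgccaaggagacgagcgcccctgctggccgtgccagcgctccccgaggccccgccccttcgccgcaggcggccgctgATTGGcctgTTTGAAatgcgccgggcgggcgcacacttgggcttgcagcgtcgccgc
Cenpa: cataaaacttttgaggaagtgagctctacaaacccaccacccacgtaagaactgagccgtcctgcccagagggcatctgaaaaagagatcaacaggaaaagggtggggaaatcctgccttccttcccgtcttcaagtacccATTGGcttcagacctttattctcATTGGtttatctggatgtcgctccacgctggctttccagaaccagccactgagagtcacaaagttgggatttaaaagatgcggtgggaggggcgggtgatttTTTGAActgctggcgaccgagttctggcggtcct
Top2a holds 2 TTTGAA and 6 CCAAT matches, Cenpa 1 and 2, and Kif11 and Kif23 have 1 of each. A match is a run of letters and not a shown binding site.

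Among the 13 spindle kinesins, 6 were higher (46.2%), 2 were lower (15.4%) and 5 did not pass, beside 25.1% higher and 23.3% lower over all tested genes. Their median log2 change was 0.10. The rises included motors that build the bipolar spindle. Kif15, a kinesin-12 that backs up Kif11 in keeping the poles apart, had 11.7, 11.9983 and 12.4 FPKM in the labelled libraries, against 9.9995, 10.3 and 9.87 FPKM in the control libraries (log2 change 0.25, SE 0.04, limma adjusted p = 0.00072). Kif11 (Eg5, chromosome 19, 37376403 to 37421859) is the kinesin-5 that slides antiparallel microtubules and pushes the poles apart. It had 44.01, 46.2 and 46.9 FPKM in the labelled libraries, against 40.2, 39.6 and 37.8 FPKM in the control libraries (log2 change 0.22, SE 0.04, limma adjusted p = 0.0014). In both genes all labelled libraries stood above all control libraries, by 19.8% and 16.5% in mean FPKM. Kifc1, a minus-end directed kinesin-14 that focuses the poles, had 37.5, 36.2 and 35.5 FPKM in the labelled libraries, against 31.7, 30.8 and 31.3 FPKM in the control libraries (log2 change 0.22, SE 0.03, limma adjusted p = 0.00057). Kifc1 and its close relative Kifc5b share 45.8% of the 50-base words of the longest Kifc1 transcript, and the sources used here do not say how shared reads were counted, so both values are uncertain. Kif14, needed for the end of cytokinesis, had 7.27, 7.49 and 7.48 FPKM in the labelled libraries, against 6.57, 6.405 and 6.17 FPKM in the control libraries (log2 change 0.20, SE 0.04, limma adjusted p = 0.00315). Kif23, the motor of centralspindlin at the spindle midzone, also rose (35.9 FPKM in labelled and 31.6 FPKM in control libraries; limma, adjusted p = 0.0028). So did Kif22, a chromosome-arm motor (20.7 FPKM in labelled and 18.8 FPKM in control libraries; limma, adjusted p = 0.00633).

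Kif20a and Kif2c went the other way. Kif20a (MKLP2, chromosome 18, 34624624 to 34633265) is a kinesin-6 that carries the passenger complex to the midzone. It had 38.3, 36.5 and 37.8 FPKM in the labelled libraries, against 45.3, 45.4 and 45.99 FPKM in the control libraries. The mean fell by 17.6% (log2 change -0.28, SE 0.03, limma adjusted p = 9.2e-05). The 2 groups did not overlap. Opposite-strand exons of Cdc23 cover 29.3% of Kif20a exon bases, and the sources used here do not say if counting used strand, so the Kif20a value is uncertain. Kif2c (MCAK), which depolymerizes microtubules at centromeres, had 25.1, 23.95 and 23.3 FPKM in the labelled libraries, against 25.5, 25.7 and 27.3 FPKM in the control libraries (log2 change -0.11, SE 0.04, limma adjusted p = 0.0426). This call was lost in limma without labelled replicate 2 or 3 or without control replicate 1, 2 or 3 (adjusted p from 0.0507 to 0.123), and over all 16 alternatives its adjusted p ran from 0.00565 to 0.123. Cenpe, the motor that carries unaligned chromosomes to the spindle equator, did not pass, with 23.8, 24.3 and 25.7 FPKM in the labelled libraries, against 24.2, 23.1 and 22.6 FPKM in the control libraries (log2 change 0.08, SE 0.04, limma adjusted p = 0.132), and its groups overlapped. Its 95% confidence interval of the log2 change ran from -0.01 to 0.17. The other spindle motors that did not pass were Kif18a (3.44 FPKM in labelled and 3.26 FPKM in control libraries), Kif18b (21.7 FPKM in labelled and 20.2 FPKM in control libraries), Kif20b (23.2 FPKM in labelled and 21.9 FPKM in control libraries) and the chromokinesin Kif4 (17.1 FPKM in labelled and 16.03 FPKM in control libraries), all higher on average in the labelled libraries.

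The ratio of the kinesin-6 genes within a library does not depend on how libraries are scaled. Kif20a over Kif23 was 1.06, 0.999 and 1.08 in the labelled libraries, against 1.41, 1.41 and 1.52 in the control libraries, and the ratios of the groups did not overlap. Kif2c over Kif11 was 0.570, 0.519 and 0.497 in the labelled libraries, against 0.632, 0.648 and 0.723 in the control libraries, again without overlap. These and the other ratios were chosen with the values known and carry no test.

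All 19 lettered centromere genes were tested, and 6 were higher (31.6%), 2 were lower (10.5%) and 11 did not pass. The share higher was near the 25.1% over all tested genes. The largest change of any member was in Cenpv (chromosome 11, 62524946 to 62539261), which encodes a protein of the centromere and midzone. Cenpv had 17.98, 17.8 and 17.5 FPKM in the labelled libraries, against 11.4, 11.6 and 12.2 FPKM in the control libraries (log2 change 0.58, SE 0.04, limma adjusted p = 6.4e-06). The mean was 51.4% higher and the groups did not overlap. Cenpx, a histone-fold protein of the CENP-T-W-S-X complex that also serves with FANCM in DNA repair, had 41.4, 38.6 and 38.8 FPKM in the labelled libraries, against 31.9, 30.96 and 35.2 FPKM in the control libraries (log2 change 0.27, SE 0.05, limma adjusted p = 0.00277). Cenpm, a member of the CENP-H-I-K-M group of the inner kinetochore, had 42.5, 43.4 and 39.5 FPKM in the labelled libraries, against 35.9, 32.7 and 36.5 FPKM in the control libraries (log2 change 0.25, SE 0.05, limma adjusted p = 0.00419). Cenpn, which reads CENP-A nucleosomes together with Cenpl, had 20.95, 20.1 and 20.2 FPKM in the labelled libraries, against 17.7, 16.9 and 16.95 FPKM in the control libraries (log2 change 0.24, SE 0.03, limma adjusted p = 0.00044). In all 4 genes every labelled library was above every control library. Cenpk (8.59 FPKM in labelled and 7.49 FPKM in control libraries) and Cenpi (9.16 FPKM in labelled and 8.54 FPKM in control libraries), partners of Cenpm, were also called (limma, adjusted p = 0.0371 and 0.0354). The Cenpk call was lost in limma without labelled replicate 2 or without control replicate 1 or 3 (adjusted p from 0.0770 to 0.116), and over all 16 alternatives its adjusted p ran from 0.0117 to 0.152. The Cenpi call was lost in limma without labelled replicate 1, 2 or 3 or without control replicate 1, 2 or 3 (adjusted p from 0.0540 to 0.102), and over all 16 alternatives its adjusted p ran from 0.019 to 0.178. Cenpi was also not called by edgeR on recovered reads (adjusted p = 0.0586).

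Of the lettered centromere genes, Cenpt and Cenpa were called lower, while other inner kinetochore genes such as Cenpn, Cenpx and Cenpm were called higher. Cenpt (chromosome 8, 105844678 to 105852008) encodes the bridge from centromeric DNA to the NDC80 complex. It had 11.9, 12.1 and 12.5 FPKM in the labelled libraries, against 15.04, 15.3 and 14.8 FPKM in the control libraries. The mean fell by 18.99% (log2 change -0.29, SE 0.03, limma adjusted p = 0.00015). Cenpa, the histone H3 variant that marks the centromere, had 24.3, 24.8 and 24.6 FPKM in the labelled libraries, against 27.2, 28.4 and 28.4 FPKM in the control libraries (log2 change -0.19, SE 0.03, limma adjusted p = 0.00101), a mean that fell by 12.3%. Every labelled library lay below every control library for both. Cenpb, whose protein binds the CENP-B box of satellite DNA, had the highest level of the lettered genes. It did not pass, with 99.3, 94.6 and 94.9 FPKM in the labelled libraries, against 93.7, 89.4 and 92.8 FPKM in the control libraries (log2 change 0.07, SE 0.03, limma adjusted p = 0.11), although its groups did not overlap. Its interval of the log2 change ran from -0.0044 to 0.14. The remaining 10, among them Cenph (14.02 FPKM in labelled and 14.8 FPKM in control libraries), Cenpw (16.01 FPKM in labelled and 15.1 FPKM in control libraries), Cenpf (17.97 FPKM in labelled and 17.2 FPKM in control libraries) and Cenpu (2.88 FPKM in labelled and 2.68 FPKM in control libraries), had log2 changes between -0.07 and 0.09 and did not pass. Cenpj, which acts in centriole assembly and not at the centromere, averaged 5.42 FPKM in labelled and 5.26 FPKM in control libraries.

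Ratios between partners of one complex differed between the groups. Cenpt over its histone-fold partner Cenpw was 0.727, 0.803 and 0.757 in the labelled libraries, against 1.15, 0.906 and 0.960 in the control libraries, and the groups did not overlap. Cenpx over Cenps was 4.11, 3.77 and 4.13 in the labelled libraries, against 3.53, 3.33 and 3.501 in the control libraries, and Cenpn over Cenpl was 3.87, 3.49 and 3.56 in the labelled libraries, against 3.37, 3.23 and 3.18 in the control libraries, both higher in every labelled library.

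At the outer kinetochore 2 of 5 genes were higher and 3 did not pass, where 25.1% of all tested genes were higher. The NDC80 complex, which holds the microtubule, consists of Ndc80 and Nuf2 at its outer end and Spc24 and Spc25 at its inner end. Spc24 (chromosome 9, 21755442 to 21760286) had 46.1, 45.5 and 45.97 FPKM in the labelled libraries, against 37.6, 37.5 and 37.7 FPKM in the control libraries (log2 change 0.28, SE 0.02, limma adjusted p = 3e-05), 21.9% higher in the mean. Ndc80 had 38.4, 37.6 and 38.8 FPKM in the labelled libraries, against 34.4, 36.4 and 34.1 FPKM in the control libraries (log2 change 0.13, SE 0.03, limma adjusted p = 0.0116). Its call was lost with equal FPKM sums (limma, adjusted p = 0.0619) and with no other of the 16 alternatives. Spc25 had 22.3, 22.5 and 22.8 FPKM in the labelled libraries, against 21.8, 22.5 and 23.5 FPKM in the control libraries (log2 change -0.0039, SE 0.03, limma adjusted p = 0.934), with overlapping groups and an interval from -0.08 to 0.07. Nuf2 (21.04 FPKM in labelled and 19.9 FPKM in control libraries) and Knl1, the scaffold that recruits checkpoint proteins (13.3 FPKM in labelled and 12.6 FPKM in control libraries), did not pass (limma, adjusted p = 0.118 and 0.156). Spc24 over Spc25 was 2.06, 2.02 and 2.02 in the labelled libraries, against 1.73, 1.66 and 1.605 in the control libraries, and the groups were apart. Ndc80 over Nuf2 was 1.77, 1.82 and 1.87 in the labelled libraries, against 1.72, 1.89 and 1.65 in the control libraries, and here the groups overlapped.

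**Figure D3:**
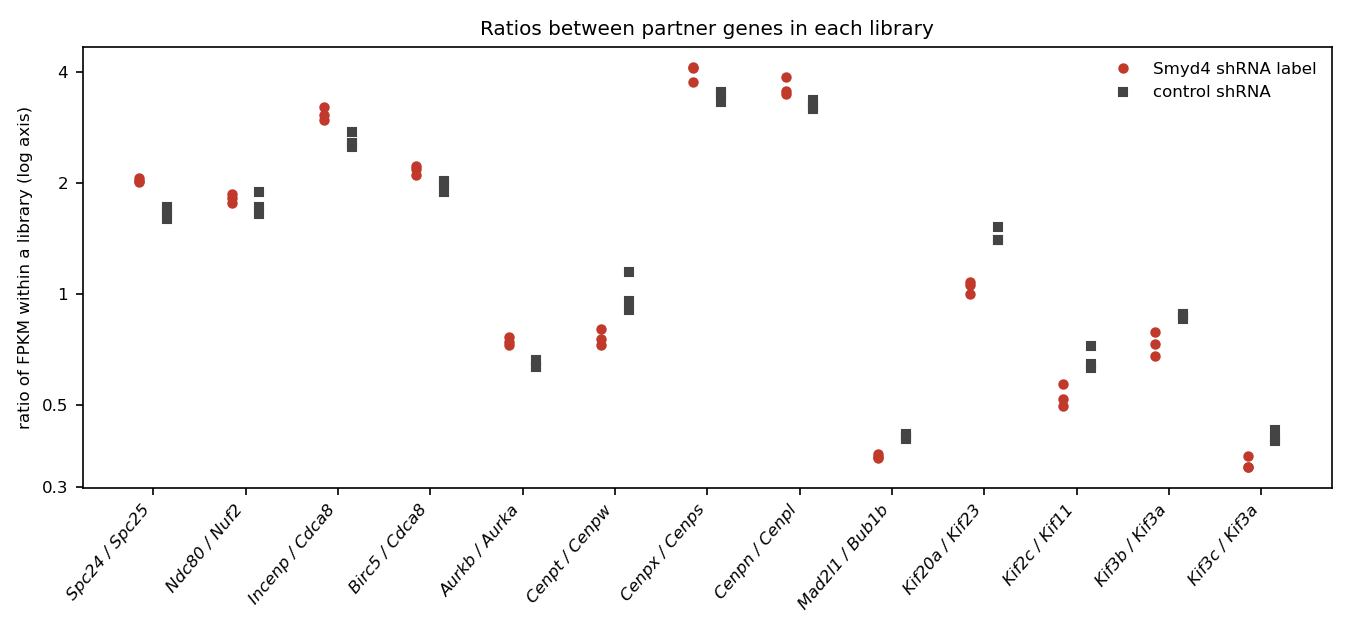
Ratio of FPKM between the genes of each pair within each library (log y axis), where not all pairs are partners of a complex. The pairs were chosen with the values known and carry no test. Red circles are the 3 labelled Smyd4 shRNA libraries and dark squares the 3 control libraries. The groups are apart for every ratio shown except Ndc80 over Nuf2; Kif20a over Kif23 lies between 0.999 and 1.08 in labelled and between 1.41 and 1.52 in control libraries.

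Of the 6 checkpoint symbols, 3 were called higher and 1 lower, and 2 missed the threshold, beside 25.1% higher and 23.3% lower over all tested genes. The largest rise was in Mad2l2 (chromosome 4, 148130384 to 148145699), 29.6% higher in the mean. It had 10.7, 10.1 and 10.3 FPKM in the labelled libraries, against 8.34, 7.71 and 7.99 FPKM in the control libraries (log2 change 0.36, SE 0.04, limma adjusted p = 0.00023). Despite its symbol, the Mad2l2 protein (REV7) is best known as a subunit of DNA polymerase zeta and of shieldin in DNA repair. Mad2l1, the MAD2 protein of the checkpoint complex that restrains Cdc20, fell, with 15.3, 14.7 and 15.1 FPKM in the labelled libraries, against 16.1, 15.98 and 16.7 FPKM in the control libraries (log2 change -0.11, SE 0.03, limma adjusted p = 0.0224), and the groups did not overlap. This call was lost in limma without labelled replicate 2 or without control replicate 3 (adjusted p from 0.0712 to 0.0745), and over all 16 alternatives its adjusted p ran from 0.00232 to 0.0745. Ttk (MPS1), the kinase that starts checkpoint signalling, had 12.3, 13.3 and 12.9 FPKM in the labelled libraries, against 11.99, 11.5 and 11.6 FPKM in the control libraries (log2 change 0.12, SE 0.04, limma adjusted p = 0.0279). Bub3, which docks Bub1 and Bub1b onto Knl1, had 26.98, 26.1 and 26.8 FPKM in the labelled libraries, against 24.9, 23.3 and 25.3 FPKM in the control libraries (log2 change 0.12, SE 0.04, limma adjusted p = 0.0274). The Ttk call was lost in limma without labelled replicate 2 or 3 or without control replicate 2 or 3 (adjusted p from 0.0654 to 0.0911), and over all 16 alternatives its adjusted p ran from 0.0154 to 0.146. The Bub3 call was lost in limma without labelled replicate 1 or 3 or without control replicate 2 (adjusted p from 0.0659 to 0.0794), and over all 16 alternatives its adjusted p ran from 0.00394 to 0.0794. Bub1b (BUBR1), the pseudokinase of the checkpoint complex, had 42.2, 40.8 and 40.96 FPKM in the labelled libraries, against 39.3, 39.4 and 40.1 FPKM in the control libraries (log2 change 0.06, SE 0.03, limma adjusted p = 0.0829) and Bub1 averaged 31.1 FPKM in labelled and 29.7 FPKM in control libraries; neither passed. Mad2l1 over Bub1b was 0.362, 0.360 and 0.369 in the labelled libraries, against 0.410, 0.405 and 0.418 in the control libraries, without overlap.

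The mitotic kinases and the chromosomal passenger complex held 7 tested genes, of which 4 were called higher and 3 missed the threshold (Plk4, Aurka and Cdca8), where 25.1% of all tested genes were higher. The number lower was 0 in limma, also at an unadjusted p under 0.05, and 0 in edgeR and DESeq2 on recovered reads. The passenger complex corrects wrong attachments and consists of the kinase Aurkb, the scaffold Incenp, Birc5 (survivin) and Cdca8 (borealin). Incenp (chromosome 19, 9872297 to 9899533) had 67.5, 63.5 and 64.1 FPKM in the labelled libraries, against 56.1, 55.2 and 54.4 FPKM in the control libraries (log2 change 0.23, SE 0.03, limma adjusted p = 0.00045). Aurkb had 41.8, 41.6 and 40.7 FPKM in the labelled libraries, against 35.98, 34.6 and 35.3 FPKM in the control libraries (log2 change 0.23, SE 0.03, limma adjusted p = 0.00027). Birc5 had 46.7, 45.3 and 45.6 FPKM in the labelled libraries, against 41.4, 41.5 and 41.9 FPKM in the control libraries (log2 change 0.14, SE 0.02, limma adjusted p = 0.0021). All 3 were higher in every labelled library, by 17.8%, 17.1% and 10.3% in the mean. The fourth subunit, Cdca8, averaged 21.1 ± 0.467 FPKM in the labelled libraries and 21.1 ± 0.790 FPKM in the control libraries (SD, n = 3 each) (limma, adjusted p = 0.9996), with an interval of the log2 change from -0.08 to 0.08. Incenp over Cdca8 was 3.21, 3.06 and 2.96 in the labelled libraries, against 2.75, 2.51 and 2.58 in the control libraries.

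Plk1, the polo kinase of mitotic entry and exit, had 76.6, 72.2 and 72.01 FPKM in the labelled libraries, against 70.4, 68.6 and 68.9 FPKM in the control libraries (log2 change 0.09, SE 0.03, limma adjusted p = 0.0485). This call was lost in limma without labelled replicate 1 or 2 or without control replicate 1, 2 or 3 (adjusted p from 0.0579 to 0.132), and over all 16 alternatives its adjusted p ran from 0.032 to 0.197. Aurka, the Aurora kinase of centrosomes and poles, did not pass, with 57.3, 54.4 and 54.8 FPKM in the labelled libraries, against 54.1, 54.4 and 55.5 FPKM in the control libraries (log2 change 0.02, SE 0.03, limma adjusted p = 0.551). Its sign changed with quantile normalization, with equal FPKM sums and without labelled replicate 1. Plk4, which controls centriole duplication, averaged 15.4 FPKM in labelled and 15.3 FPKM in control libraries. Aurkb over Aurka was 0.729, 0.764 and 0.741 in the labelled libraries, against 0.665, 0.635 and 0.637 in the control libraries, without overlap. Aurkc, the Aurora kinase known from meiosis, was at 0, 0.0260 and 0.0317 FPKM in the labelled libraries and at 0 in all control libraries, and it was left untested.

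Of the 3 remaining spindle and chromosome genes, Top2a was the member with the highest level of all. Top2a (chromosome 11, 98992943 to 99024189), the topoisomerase that untangles sister chromatids, had 111, 112 and 116 FPKM in the labelled libraries, against 97.3, 97.4 and 96.8 FPKM in the control libraries (log2 change 0.21, SE 0.02, limma adjusted p = 0.00026), 15.9% higher. Tpx2, the activator and spindle anchor of Aurora A, had 63.8, 61.7 and 63.1 FPKM in the labelled libraries, against 64.5, 62.8 and 65.2 FPKM in the control libraries (log2 change -0.03, SE 0.03, limma adjusted p = 0.39), with overlapping groups. It was called lower with equal FPKM sums and in no other alternative. Prc1, which bundles midzone microtubules, averaged 22.2 FPKM in labelled and 21.6 FPKM in control libraries and did not pass (limma, adjusted p = 0.376).

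**Figure D4:**
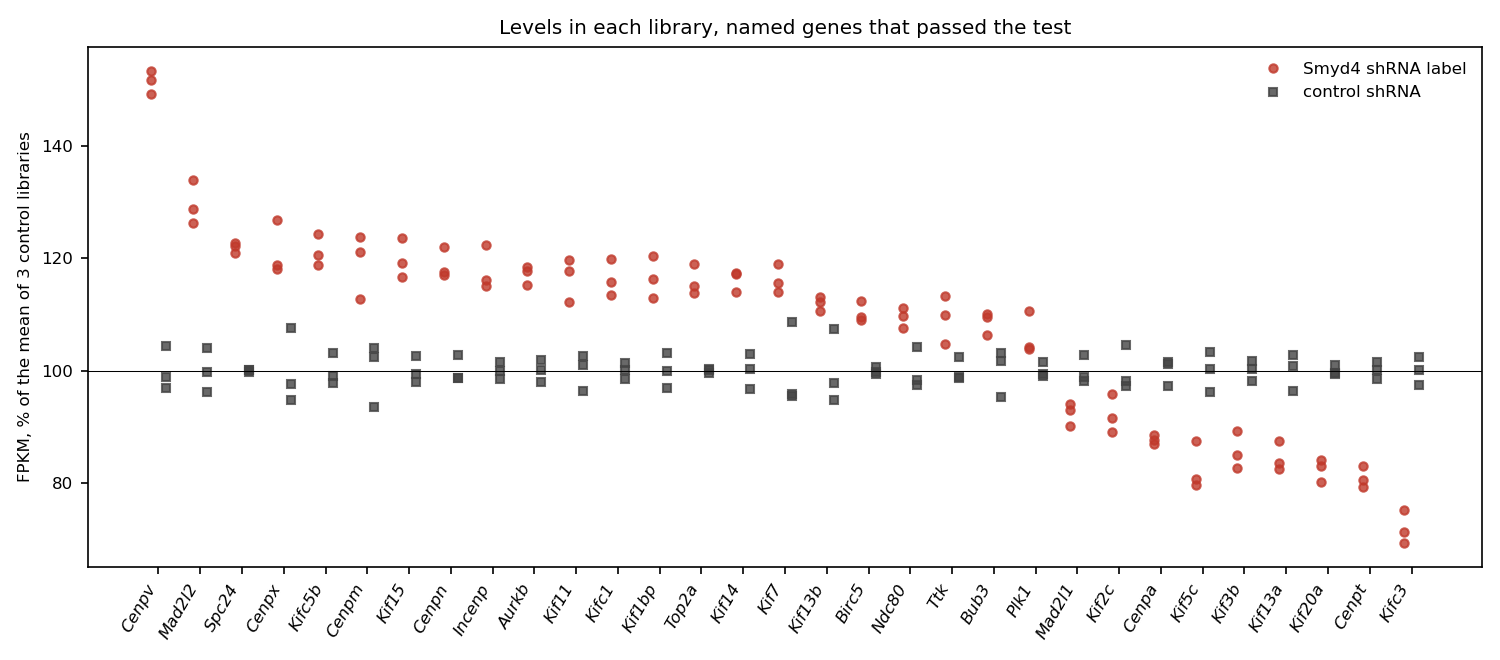
FPKM of each library as a percentage of the mean of the 3 control libraries (y axis) for the named genes that passed the test, ordered by log2 change; red circles are labelled Smyd4 shRNA libraries and dark squares control libraries. The groups do not overlap for any gene shown, from Cenpv, 51.4% higher in the mean, at the left to Kifc3 at the right.

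The other kinesin symbols, most of them motors of transport, cilia or signalling, showed no common direction. Of 28, 18 were tested, and 5 were higher (27.8%), 6 were lower (33.3%) and 7 did not pass, beside 25.1% higher and 23.3% lower over all tested genes. Their median log2 change was -0.03. The largest fall of any member was in Kifc3 (chromosome 8, 95099832 to 95142540), a minus-end kinesin of apical transport and cell junctions. Kifc3 had 4.9998, 4.85 and 5.27 FPKM in the labelled libraries, against 7.02, 6.83 and 7.18 FPKM in the control libraries. The mean fell by 28.1% (log2 change -0.44, SE 0.04, limma adjusted p = 0.0001). Kif13a, a kinesin-3 of endosomes, had 7.66, 7.76 and 8.12 FPKM in the labelled libraries, against 9.37, 9.55 and 8.94 FPKM in the control libraries (log2 change -0.23, SE 0.04, limma adjusted p = 0.00206). Kif3b, a motor subunit of heterotrimeric kinesin-2 in ciliary and vesicle transport, had 10.8, 10.5 and 11.4 FPKM in the labelled libraries, against 12.5, 12.9 and 12.8 FPKM in the control libraries (log2 change -0.22, SE 0.04, limma adjusted p = 0.00195). In these 3 genes every labelled library lay below every control library. Kif5c, a kinesin-1 heavy chain best known from neurons, had 1.398, 1.38 and 1.51 FPKM in the labelled libraries, against 1.74, 1.79 and 1.67 FPKM in the control libraries (log2 change -0.21, SE 0.07, limma adjusted p = 0.0447). The Kif5c call was lost in limma without labelled replicate 1, 2 or 3 or without control replicate 1, 2 or 3 (adjusted p from 0.0519 to 0.130), and over all 16 alternatives its adjusted p ran from 0.00414 to 0.180. Kif3c (5.15 FPKM in labelled and 6.01 FPKM in control libraries) and Kif1b (10.0002 FPKM in labelled and 10.8 FPKM in control libraries), a motor of mitochondria and synaptic vesicle precursors, were lower as well (limma, adjusted p = 0.00763 and 0.0269). The Kif1b call was lost in limma without labelled replicate 1 or 2 or without control replicate 1, 2 or 3 (adjusted p from 0.0515 to 0.0843), and over all 16 alternatives its adjusted p ran from 0.00161 to 0.0843. Opposite-strand exons of 1110002L01Rik cover 35.3% of Kif3c exon bases, so its value is uncertain too.

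The kinesin-2 genes shifted relative to each other. Kif3a, the partner shared by Kif3b and Kif3c, averaged 14.8 ± 0.549 FPKM in the labelled libraries and 14.6 ± 0.486 FPKM in the control libraries (SD, n = 3 each) and did not pass (limma, adjusted p = 0.654). Kif3b over Kif3a was 0.735, 0.681 and 0.792 in the labelled libraries, against 0.886, 0.859 and 0.875 in the control libraries, and Kif3c over Kif3a was 0.340, 0.339 and 0.364 in the labelled libraries, against 0.405, 0.400 and 0.429 in the control libraries; both ratios were lower in every labelled library. Kifap3, the adaptor of the same trimer and no member by symbol, fell as well, with 16.6, 16.7 and 16.02 FPKM in the labelled libraries, against 18.6, 20.4 and 18.7 FPKM in the control libraries (log2 change -0.22, SE 0.04, limma adjusted p = 0.00342).

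Among the rises in this group, Kifc5b, the close relative of Kifc1, had 31.7, 30.7 and 30.3 FPKM in the labelled libraries, against 26.3, 24.9 and 25.3 FPKM in the control libraries (log2 change 0.27, SE 0.03, limma adjusted p = 0.00024). Kif1bp, which is not a motor but a protein that binds kinesins, had 13.9, 13.01 and 13.4 FPKM in the labelled libraries, against 11.5, 11.2 and 11.9 FPKM in the control libraries (log2 change 0.21, SE 0.04, limma adjusted p = 0.00228). Kif7, a ciliary regulator of Hedgehog signalling, had 3.28, 3.38 and 3.24 FPKM in the labelled libraries, against 2.71, 3.09 and 2.72 FPKM in the control libraries (log2 change 0.19, SE 0.06, limma adjusted p = 0.0352). Kif13b, a kinesin-3 that carries PIP3 vesicles and the DLG scaffold, had 5.72, 5.76 and 5.64 FPKM in the labelled libraries, against 5.48, 4.84 and 4.98 FPKM in the control libraries (log2 change 0.15, SE 0.05, limma adjusted p = 0.0393). The Kif7 call was lost in limma without labelled replicate 1, 2 or 3 or without control replicate 1 or 3 (adjusted p from 0.0600 to 0.110), and over all 16 alternatives its adjusted p ran from 0.0108 to 0.110. The Kif13b call was lost in limma without labelled replicate 1, 2 or 3 or without control replicate 2 or 3 (adjusted p from 0.0666 to 0.124), and over all 16 alternatives its adjusted p ran from 0.0128 to 0.124. Kif21a, which restrains microtubule growth at the cell cortex, was also called higher (16.1 FPKM in labelled and 14.5 FPKM in control libraries; limma, adjusted p = 0.0291). The Kif21a call was lost in limma without labelled replicate 2 or without control replicate 1, 2 or 3 (adjusted p from 0.0601 to 0.0799), and over all 16 alternatives its adjusted p ran from 0.00264 to 0.111. Kif1c, the most abundant transport kinesin, had 46.6, 45.5 and 44.2 FPKM in the labelled libraries, against 45.2, 45.7 and 44.7 FPKM in the control libraries (log2 change 0.01, SE 0.03, limma adjusted p = 0.86), with an interval from -0.06 to 0.07. The general transport motor Kif5b (33.7 FPKM in labelled and 34.6 FPKM in control libraries), Kif2a (8.92 FPKM in labelled and 9.303 FPKM in control libraries), Kif16b (6.33 FPKM in labelled and 5.93 FPKM in control libraries), Kif24 (2.14 FPKM in labelled and 2.17 FPKM in control libraries) and Kif21b (1.34 FPKM in labelled and 1.405 FPKM in control libraries) did not pass either.

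Levels differed between the classes. Mean FPKM over the 6 libraries had a median of 22.6 over the spindle kinesins and 8.84 over the tested other kinesin symbols, 43.7 over the kinases and passenger genes and 13.6 over the lettered centromere genes. The 11 members that were not tested had means from 0.0029 to 0.267 FPKM and at most 96 reads in a library. They were Aurkc and the kinesin symbols Kif1a, Kif5a, Kif6, Kif9, Kif17, Kif19a, Kif26a, Kif26b, Kif27 and Kifc2. The tested members rested on 218 to 26053 reads per library.

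The authors' deposited table of called genes lists 32 of the 82 members, 21 higher and 11 lower, beside 5616 of all 22246 genes. These shares have unlike bases, because 71 of the 82 members but only 11325 of all 22246 genes reached a mean of 1 FPKM. All 32 were called here with the same sign, from the same 6 libraries, so the match is not independent support. The 6 members called here but not listed there were Plk1, Ttk, Cenpi, Cenpk, Kif7 and Kif13b.

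Genes of the same pathway outside the symbols, together with 10 proliferation and S-phase genes, were counted in lists as other pathway genes, and all 98 were tested. The 10 proliferation and S-phase genes, of which 8 were called higher and 0 lower, raise the pooled share that was higher. Of these 40 were called higher (40.8%) and 12 lower (12.2%), and 46 missed the threshold, beside 25.1% higher and 23.3% lower over all tested genes. The counts of the single lists are read against the same shares. Further kinetochore and centromere genes had 9 of 21 higher and 1 lower. Mad1l1, the partner that loads Mad2l1 onto kinetochores, rose (16.1 FPKM in labelled and 12.4 FPKM in control libraries; log2 change 0.37, SE 0.03, limma adjusted p = 2.3e-05). Nsl1, a subunit of the MIS12 complex, rose as well (9.16 FPKM in labelled and 7.53 FPKM in control libraries; limma, adjusted p = 0.00082). Spindle and cytokinesis genes had 7 of 16 higher and 2 lower. Ect2, which activates RhoA at the cleavage site, rose (41.6 FPKM in labelled and 33.4 FPKM in control libraries; log2 change 0.31, SE 0.04, limma adjusted p = 0.00022) and the spindle pole protein gene Numa1 fell (29.6 FPKM in labelled and 33.7 FPKM in control libraries; limma, adjusted p = 0.00077). Genes of mitotic entry and exit had 4 of 16 higher, close to the 25.1% over all tested genes, and 2 lower. The kinase gene Mastl was lower (8.62 FPKM in labelled and 10.7 FPKM in control libraries) and the Cdk1 inhibitory kinase gene Pkmyt1 was higher (11.4 FPKM in labelled and 9.77 FPKM in control libraries), at adjusted p = 0.00067 and 0.00177 in limma.

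Cohesin and condensin genes had 5 of 14 higher and 1 lower, led by Stag1 (8.72 FPKM in labelled and 6.62 FPKM in control libraries) and Smc4 (73.03 FPKM in labelled and 63.8 FPKM in control libraries), at adjusted p = 0.00047 and 0.00549 in limma. Transcription factors of the G2 and M phase class had 4 of 12 higher and 3 lower. Rbl2, the p130 pocket protein of the DREAM repressor, fell (4.82 FPKM in labelled and 6.32 FPKM in control libraries; log2 change -0.36, SE 0.04, limma adjusted p = 0.00024), and Nfyb, a subunit of the CCAAT-binding factor, rose (11.6 FPKM in labelled and 9.99 FPKM in control libraries; log2 change 0.21, SE 0.03, limma adjusted p = 0.0006). Kinesin partner genes had 3 of 9 higher and 3 lower, with the light chain gene Klc3 at 1.37 FPKM in labelled and 0.952 FPKM in control libraries (limma, adjusted p = 0.0137). The Klc3 call was lost in limma without labelled replicate 1 (adjusted p = 0.0509) and in DESeq2 on recovered reads (adjusted p = 0.0561), and over all 16 alternatives its adjusted p ran from 0.00622 to 0.0561. Proliferation and S-phase genes had 8 of 10 higher and 0 lower, also 0 lower in edgeR, in DESeq2 and at an unadjusted p under 0.05 in limma. Mcm5 (69.9 FPKM in labelled and 54.03 FPKM in control libraries) and Mcm3 (74.5 FPKM in labelled and 63.2 FPKM in control libraries), subunits of the replicative helicase, had the largest changes past the threshold (limma, adjusted p = 4.3e-05 and 0.00013).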

How the data were processed

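Values analysed were FPKM for 22246 Ensembl genes, deposited by the authors, 1 column per library, for 3 libraries labelled Smyd4 shRNA and 3 labelled control shRNA. Per the submitters' processing notes, TopHat2 2.0.9, Bowtie2 2.0.6 and build GRCm38 were used; no read counter is named there. The authors' deposited comparison table gives 5616 called genes with a normalized signal per library, the authors' log2 fold changes and their p-values. FPKM times gene length over that signal was 1 constant, so the FPKM carry the authors' size factors. In every library 100% of the signal values were whole multiples of 1 step (tolerance 1e-04), and reads were recovered from them; 100% of FPKM values gave whole reads within 0.01, with lengths searched for where the authors gave none (for 13 members the smallest possible length, so those read counts are lower bounds).

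Symbols were assigned by Ensembl identifier, for 22134 genes. Genes averaging 1 FPKM or more were compared on log2(FPKM + 0.5) with limma 3.58.1 (trended empirical Bayes) in R 4.3.3, without a replicate block, and adjusted by Benjamini-Hochberg. Such changes understate those of low genes. Alternatives were other pseudocounts (0.1 and 1), filters (none and 0.3 FPKM) and scalings, the replicate number as a block, each library left out, and edgeR 4.0.16 and DESeq2 1.42.0 on recovered reads. The limma fit was tested on simulated data. Named genes were, per role, up to 4 rises and 4 falls past the threshold by size and the highest-level gene that did not pass, and 2 per list of other pathway genes; further genes were named after their values were seen. The members and lists were chosen with earlier results of these data known. Coordinates are GRCm38, from the authors' table or, for genes outside it, GENCODE M21; 22 members share exon bases with another gene of the table. Replicate pairs differed by more than counting noise (chi-square per degree of freedom 1.68 to 2.88), so each library was counted.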

Additional observations from a re-analysis of the deposited data

How the results depend on the processing

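The counts of members called higher and lower were 27 and 11. Over the 16 alternatives they ranged from 18 to 30 and from 7 to 12. Leaving out 1 library gave 20 to 24 higher and 7 to 9 lower; the 7 came without labelled replicate 2 and without control replicate 3. Over the same 16 alternatives the other pathway genes called lay between 44 and 55, against 52, and all genes called between 4536 and 6824, against 5474. Smyd4 was called lower with equal FPKM sums (log2 change -0.11; limma, adjusted p = 0.0447) and in no other alternative (adjusted p from 0.117 to 0.444). Signs changed for uncalled members near 0. Aurka was at -0.0019 with quantile normalization and -0.014 with equal FPKM sums, and leaving out 1 library gave -0.00085 (labelled replicate 1) to 0.036. Kif1c was at -0.010 with quantile normalization, -0.0044 with median-of-ratios scaling and -0.029 with equal FPKM sums, and leaving out 1 library gave -0.012 to 0.026, below 0 without labelled replicate 1 (-0.012) and without control replicate 3 (-0.0013). Spc25 gave -0.029 to 0.023, above 0 without labelled replicate 1 (0.0020) and without control replicate 3 (0.023). The cause was not tested.

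Same-numbered libraries did not deviate together (correlations -0.03, 0.02 and 0.0069 across genes). No pairing by number was seen, but such correlations cannot exclude a shared culture or preparation. The replicate block gave 24 members higher, 8 lower and 5141 genes called. The median SD of log2 values between replicates was 0.051 in the labelled and 0.048 in the control libraries, which with 3 libraries a group limits how small a change can pass.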

Other observations

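Labelled replicate 3 carried faint signal of some marker genes of other cell types. The summed endothelial markers stood at 0.655 FPKM in it, against 0.0554 FPKM in the lowest labelled library and 0.125 to 0.168 in the control libraries. Of the immune markers, Ptprc and Adgre1 were above 0 in it and at 0 in every other library. The immune list as a whole was not raised in it. Its sum lay between 1.70 and 1.80 FPKM in the labelled libraries, replicate 3 included, and between 1.79 and 2.12 FPKM in the control libraries. Without labelled replicate 3, 22 of 71 tested members were called higher and 9 lower, beside 2540 higher and 2453 lower of all 11334 genes tested in that setting.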
